A study of Mus musculus with 6 samples.

Results

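A set of 10 genes of Fc receptor and ITAM signalling was followed in the mouse macrophage-like line RAW264.7, with and without IL-4: the activating side (Fcgr1, Fcgr3, Fcgr4, Fcer1g, Tyrobp and Trem2, 6 genes) and the inhibitory side (Fcgr2b, Pirb, Sirpa and Ptpn6, 4 genes). They were taken by symbol from the 25124 genes of the deposited TPM table, where all 10 were listed, and all 10 passed the filter that left 11202 genes to test. TPM is transcript abundance scaled for transcript length and library depth. The cells were the control line of a knockout study of E4BP4, given Cas9 without a guide RNA, so that every library carries that treatment; the sources used here do not say whether the line is 1 clone. Both groups grew in medium with 25 mM glucose and 10% serum. The M0 group (3 libraries) received no IL-4, and the M2 group (3 libraries) received IL-4 at 10 ng/ml to bring about alternative activation; the sources used here do not give the exposure time. All M0 libraries and no M2 library carry a note of re-analysis in the labels, so an effect of IL-4 and one of what the note refers to cannot be told apart.

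Fc gamma receptors bind the constant part of IgG and let macrophages take up and respond to antibody-coated particles. The activating receptors signal through adaptor chains whose cytoplasmic ITAM, a paired tyrosine motif, is phosphorylated by Src family kinases and then recruits the kinase SYK. Inhibitory receptors carry an ITIM, a tyrosine motif that recruits phosphatases such as SHP-1 and SHIP1 and so dampens the same cascade. The balance of the activating and inhibitory sides is known to set how strongly a macrophage reacts to immune complexes and to cells marked for uptake.

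With IL-4, transcripts of the receptors Fcgr1, Fcgr3 and Trem2 rose 1.19-fold, 1.23-fold and 1.19-fold, while those of the receptor Fcgr4 and the adaptor Tyrobp fell by 13.6% and 15.6%. On the inhibitory side the phosphatase gene Ptpn6 fell by 43.1% and the low-abundance receptor gene Pirb by 64.6%. Fcer1g, Fcgr2b and Sirpa did not pass the test. The 3 rises and 4 falls, out of 10, were called by limma on log2(TPM + 1) at a Benjamini-Hochberg adjusted p under 0.05. Of all 11202 tested genes 43.7% were called by that rule, 20.1% upward and 23.7% downward. The median log2 difference was -0.17 over the 10 genes, 0.02 over the 6 activating and -0.47 over the 4 inhibitory ones, against -0.03 over all tested genes. The inhibitory median was -0.13 without Pirb, which reached the filter through M0 alone. The groups did not overlap for 9 of the 10, with 3 genes wholly higher in M2 and 6 wholly lower. Among all tested genes 55.9% showed such a separation, 25.1% upward and 30.8% downward.

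Recovered reads, obtained from TPM and transcript length, came to between 15615639 and 19511192 per library. Several macrophage genes were abundant in every library: Cd68 lay between 447 and 617 TPM, Csf1r between 240.3 and 295 TPM, and Spi1 between 175 and 211 TPM. Others were not: Adgre1 had 2.149 to 3.075 TPM in M0 and 5.981 to 6.274 TPM in M2. Mertk had 9.122 to 10.282 TPM in M0 and 17.898 to 21.249 TPM in M2. All 9 macrophage identity genes were tested, and Mertk and Adgre1 rose while Cd14, Mpeg1 and Itgam fell. Summed markers of B cells (6 genes), NK cells (6), mast cells (7) and fibroblasts (6) reached at most 0.303, 0.360, 0.105 and 1.08 TPM in any library. The T cell list (6 genes) summed to 3.56 to 4.88 TPM in M0 and 2.75 to 4.01 TPM in M2, of which Cd247, itself an ITAM chain, gave 2.67 to 4.68 TPM, and Cd3g and Cd8a had 0 reads in each library. The neutrophil list (7 genes) summed to 4.50 to 5.98 TPM in M0 and 4.12 to 5.85 TPM in M2, nearly all of it S100a8, with Ltf at 0. In bulk RNA, fewer cells that express a gene and less RNA per cell cannot be told apart. M2 replicate 3 stood apart in a trend with transcript length: its median deviation was 0.11 on the log2 scale for tested genes of 700 to 1000 bases and -0.27 for those of 5000 bases or more.

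**Figure D1:**
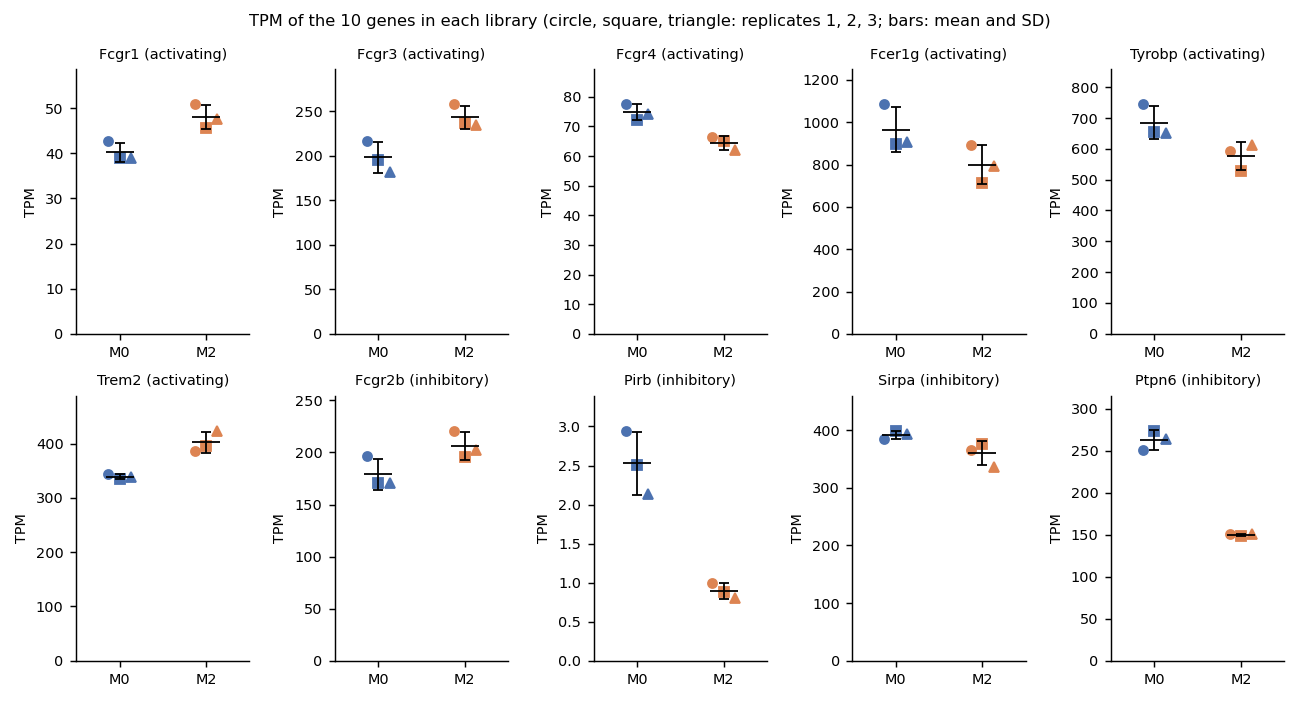
TPM (vertical axes, from 0) of each of the 10 genes in the 3 M0 and 3 M2 libraries, with circles, squares and triangles for replicates 1, 2 and 3 and bars for the mean and SD. Fcgr1, Fcgr3 and Trem2 sit higher in all M2 libraries, Ptpn6 and Pirb well below all M0 libraries, and only Fcgr2b has groups that overlap.

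Promoters are shown because neighbouring activating receptor genes moved in opposite directions. Fcgr2b, Fcgr4, Fcgr3 and Fcer1g lie in that order on chromosome 1 within a single cluster, and there Fcgr3 rose while Fcgr4 fell. Of the 10 genes 8 had a RefSeq promoter window (GRCm38.p6, the same assembly as mm10), and in 7 the window began at the start site of the transcript the authors measured. The 250 bases before the start site were searched on both strands for GAGGAA, which is part of the PU.1 consensus, and for TTCNNNGAA and TTCNNNNGAA, the spaced palindromes bound by STAT factors, of which the latter is the spacing STAT6 favours. Matches of the different motifs did not overlap. GAGGAA was found in 5 of the 7, against 23.3% of 32851 RefSeq windows, and lay 55, 15, 22 and 40 bases before the start of Fcgr1, Fcgr3, Fcgr4 and Trem2, with 3 matches in Pirb at 185, 120 and 87 bases. TTCNNNGAA was found in 1 of the 7, Fcgr1, at 109 bases before the start (7.02% of all windows), and TTCNNNNGAA in 0 of the 7 (5.85% of all windows). Fcgr2b and Fcer1g held none of the 3 motifs. The shares are over RefSeq windows whether or not their genes are expressed in these cells, and enrichment was not tested. A match is only a string of letters and no evidence of binding. The 5 windows with a match read as follows, 5′ to 3′ along the gene, with matches in capitals (TTCCTC is GAGGAA on the other strand).
Fcgr1 (chr3:96293970-96294219, minus strand): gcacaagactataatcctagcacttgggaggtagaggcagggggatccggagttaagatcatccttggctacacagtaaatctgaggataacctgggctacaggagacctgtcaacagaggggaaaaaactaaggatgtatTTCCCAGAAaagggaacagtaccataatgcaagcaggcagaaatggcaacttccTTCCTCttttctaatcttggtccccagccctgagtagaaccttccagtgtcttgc
Fcgr3 (chr1:171059395-171059644, minus strand): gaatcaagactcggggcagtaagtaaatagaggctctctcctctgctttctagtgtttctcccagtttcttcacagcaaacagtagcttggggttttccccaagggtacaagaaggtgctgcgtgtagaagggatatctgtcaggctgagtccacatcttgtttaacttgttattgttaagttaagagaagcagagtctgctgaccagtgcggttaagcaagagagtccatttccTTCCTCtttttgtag
Fcgr4 (chr1:171018676-171018925, plus strand): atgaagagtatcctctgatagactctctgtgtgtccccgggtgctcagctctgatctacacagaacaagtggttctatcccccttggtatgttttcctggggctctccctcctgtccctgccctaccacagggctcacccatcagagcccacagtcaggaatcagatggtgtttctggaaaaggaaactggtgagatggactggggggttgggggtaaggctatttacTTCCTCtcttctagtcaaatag
Trem2 (chr17:48346151-48346400, plus strand): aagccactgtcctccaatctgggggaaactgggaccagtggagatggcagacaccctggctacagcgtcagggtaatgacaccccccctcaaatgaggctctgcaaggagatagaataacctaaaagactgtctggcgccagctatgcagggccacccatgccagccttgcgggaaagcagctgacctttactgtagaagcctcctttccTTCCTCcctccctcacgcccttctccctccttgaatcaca
Pirb (chr7:3720383-3720632, minus strand): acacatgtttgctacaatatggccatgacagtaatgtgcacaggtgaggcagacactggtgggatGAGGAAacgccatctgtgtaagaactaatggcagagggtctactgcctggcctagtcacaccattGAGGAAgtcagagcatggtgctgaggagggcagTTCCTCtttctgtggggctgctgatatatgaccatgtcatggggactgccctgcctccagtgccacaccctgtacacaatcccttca

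Among the activating Fc gamma receptors, Fcgr3, which encodes the low-affinity IgG receptor CD16, was the most abundant. It stood at 217, 196 and 182 TPM in M0 replicates 1, 2 and 3 and at 259, 236 and 235 TPM in the M2 replicates. All M2 values were above all M0 values, and within each group replicate 1 was the highest. The mean went from 198 ± 17.4 to 243 ± 13.3 TPM (SD, n = 3 each), a log2 difference of 0.30 (SE 0.074, adjusted p = 0.0114 by limma). Its transcript (NM_001356511) lies on chromosome 1, 171051169 to 171059394, minus strand, in mm10.

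Fcgr1, the high-affinity IgG receptor CD64, was the least abundant of them. It had 42.7, 39.0 and 38.9 TPM in M0 and 51.0, 45.5 and 47.6 TPM in M2, without overlap. The mean rose from 40.2 ± 2.15 to 48.0 ± 2.74 TPM (log2 difference 0.25, SE 0.066, adjusted p = 0.0146 by limma). This gene is outside the chromosome 1 cluster, on chromosome 3, 96282909 to 96293969, minus strand (NM_010186).

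Fcgr4, the mouse receptor that pairs with the same adaptor and binds IgG2 subclasses, went the other way. Its values were 77.6, 72.3 and 74.3 TPM in M0 and 66.6, 65.1 and 62 TPM in M2, again without overlap. The mean fell from 74.8 ± 2.69 to 64.6 ± 2.35 TPM (log2 difference -0.21, SE 0.056, adjusted p = 0.0155 by limma). In each library the TPM of Fcgr3 was divided by that of Fcgr4. The ratio was 2.79, 2.71 and 2.45 in M0 and 3.88, 3.63 and 3.79 in M2. Between these genes the mix of transcripts thus shifted toward Fcgr3, though the ratio was not tested. It had to separate the groups, as Fcgr3 alone was wholly higher and Fcgr4 alone wholly lower in M2. Fcgr4 (NM_144559) lies on the plus strand of chromosome 1, 171018926 to 171029761.

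Fcgr2b encodes the inhibitory IgG receptor CD32, whose ITIM recruits SHIP1. Its TPM was 196, 170.3 and 170.3 in M0 and 221, 196 and 202 in M2, and M2 replicate 2 lay just below M0 replicate 1. The mean was 179 ± 15.0 TPM in M0 and 206 ± 13.1 TPM in M2, a log2 difference of 0.20 (95% interval 0.04 to 0.37) that missed the threshold (adjusted p = 0.0514 by limma). It passed in 9 of 16 alternative analyses, with adjusted p between 0.0144 and 0.177, and the authors' deposited table gives it an adjusted p of 0.0259. Fcgr2b (NM_010187) is on chromosome 1, 170960559 to 170976071, minus strand. Of the 50-base stretches of its transcript 11.7% occur also in Fcgr3, and 12.8% of those of the longest annotated Fcgr3 transcript occur in Fcgr2b, so reads of these stretches could count for either gene. The antisense gene Gm38204 overlaps 155 exonic bases (2.68%) of Fcgr2b on the opposite strand. Its reads cannot be told apart there if counting ignored strand.

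The activating receptors were then set against the inhibitory one within each library. Fcgr1, Fcgr3 and Fcgr4 summed to 337, 307 and 296 TPM in M0 and to 376, 347 and 344 TPM in M2. Divided by Fcgr2b, that sum gave 1.72, 1.80 and 1.74 in M0 and 1.70, 1.77 and 1.70 in M2, and these groups overlap. The log2 ratio of Fcgr2b to single receptors changed by -0.05 against Fcgr1, -0.09 against Fcgr3 and 0.42 against Fcgr4. Each of these 3 ratios separated the groups completely and so reached p = 0.10 by an exact two-sided permutation test, the smallest p that 3 against 3 libraries allow (adjusted p = 0.133 over 4 ratios).

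**Figure D2:**
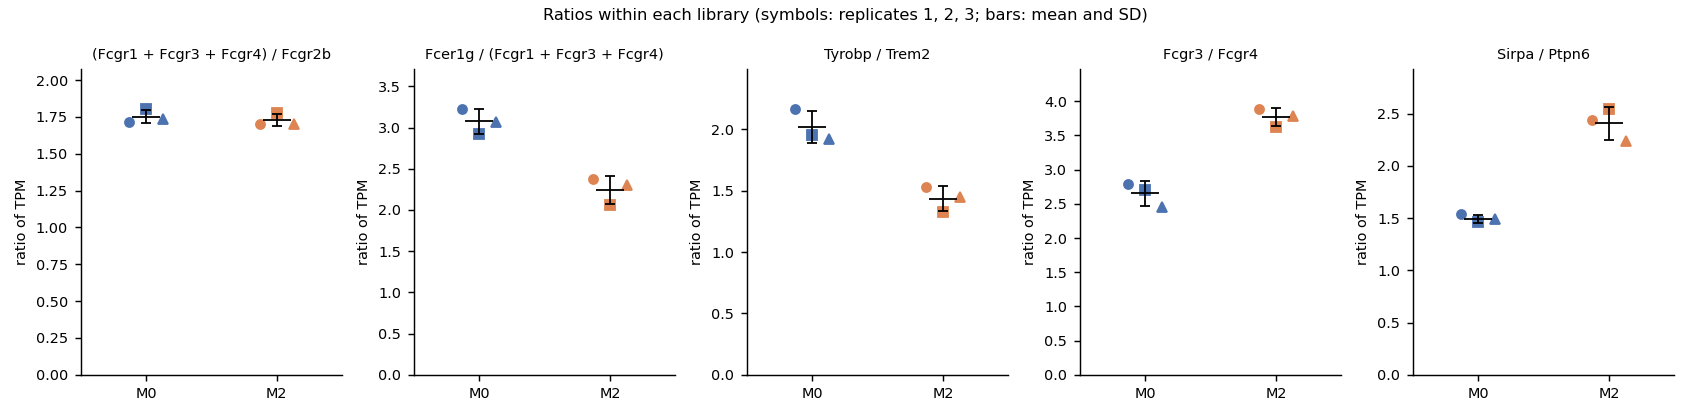
Ratios of TPM within each library (vertical axes, from 0) for 5 pairs of quantities in M0 and M2, with symbols for replicates 1, 2 and 3 and bars for the mean and SD. The activating receptors over Fcgr2b overlap between the groups at about 1.7 to 1.8, whereas adaptor over receptor ratios are lower and Fcgr3 over Fcgr4 and Sirpa over Ptpn6 are higher in every M2 library. None of the 5 ratios shown was tested.

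The adaptors were the most abundant of the 10 transcripts. Fcer1g encodes the common gamma chain, the ITAM subunit of the activating Fc receptors. Its values were 1087, 899 and 909 TPM in M0 and 895, 714 and 791 TPM in M2, so the highest M2 library lay just under the lowest M0 library. The mean was 965 ± 106 TPM in M0 and 799.9 ± 90.7 TPM in M2, a log2 difference of -0.27 (95% interval -0.50 to -0.04) that did not pass (adjusted p = 0.0574 by limma). It passed in 4 of 16 alternatives, with adjusted p between 0.00736 and 0.191. The gene lies at the far end of the chromosome 1 cluster, 171229572 to 171234349, minus strand (NM_010185).

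Tyrobp encodes DAP12, the ITAM adaptor of TREM2 and of many other myeloid receptors. Its TPM was 746, 656 and 650.3 in M0 and 593, 527 and 613 in M2, without overlap. The mean fell from 684 ± 53.7 to 578 ± 44.8 TPM (log2 difference -0.24, SE 0.080, adjusted p = 0.0352 by limma), and this call held in 5 of 16 alternatives (adjusted p 0.00444 to 0.148). Tyrobp (NM_011662) is on chromosome 7, 30413782 to 30417579, plus strand.

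Both adaptor transcripts are short, 651 bases for Fcer1g and 565 for Tyrobp, and libraries differed in how short transcripts fared. Over 702 tested genes under 700 bases the median log2 difference between the groups was -0.02, and 11.5% rose and 11.7% fell. In those genes M0 replicate 1 and M2 replicate 3 were 0.08 and 0.09 above the mean of all libraries, and M2 replicate 2 was 0.13 below it (median deviation -0.13). With the trend of each library on transcript length removed, the differences were -0.25 for Fcer1g (adjusted p = 0.0318 by limma) and -0.22 for Tyrobp (adjusted p = 0.00444 by limma). Without M0 replicate 1 they were -0.18 for both, with adjusted p of 0.191 and 0.125.

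Trem2 encodes a receptor for lipids and lipoproteins that signals through DAP12. It had 345, 335 and 338 TPM in M0 and 387, 397 and 424 TPM in M2, with little spread in M0 and every M2 library above it. The mean rose from 339 ± 4.92 to 403 ± 19.0 TPM (log2 difference 0.25, SE 0.056, adjusted p = 0.00716 by limma), and the rise passed in all 16 alternatives. Trem2 (NM_031254) lies on chromosome 17, 48346401 to 48352276, plus strand.

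Each adaptor was set against its receptors within each library. Tyrobp over Trem2 was 2.16, 1.96 and 1.92 in M0 and 1.53, 1.33 and 1.45 in M2. Fcer1g over the sum of Fcgr1, Fcgr3 and Fcgr4 was 3.22, 2.93 and 3.07 in M0 and 2.38, 2.06 and 2.30 in M2. In all 6 libraries the adaptor transcript outnumbered the receptor transcripts it was set against, per length. Both ratios were lower in every M2 library, but this was already fixed by their parts. Each adaptor alone was wholly lower in M2, and Trem2 and the receptor sum were wholly higher. Neither ratio was tested.

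**Figure D3:**
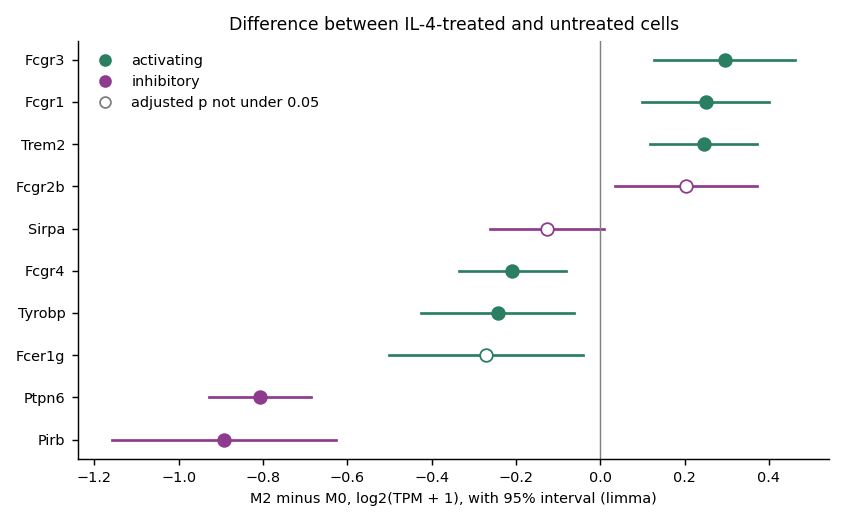
Difference between M2 and M0 on log2(TPM + 1) (horizontal axis) for the 10 genes, with 95% intervals from limma; green is activating, purple inhibitory, and open points have an adjusted p of 0.05 or more. Ptpn6 and Pirb lie near -0.8 and -0.9, and the others lie between -0.27 and 0.30.

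On the inhibitory side, Ptpn6 encodes SHP-1, the tyrosine phosphatase recruited by the ITIMs of PIR-B and SIRP alpha. Ptpn6 had 250.4, 274 and 264 TPM in M0 and 150.3, 148 and 150.4 TPM in M2. The M2 libraries were nearly equal and far below every M0 library. The mean fell from 263 ± 11.7 to 149.6 ± 1.30 TPM (log2 difference -0.81, SE 0.053, adjusted p = 1.17e-05 by limma), and the fall passed in all 16 alternatives, where it ranged from -0.84 to -0.66. Ordered by log2 difference from the lowest, it stood at place 333 of the 11202 tested genes. Ptpn6 (NM_013545) lies on chromosome 6, 124720707 to 124733154, minus strand, and 195 of its exonic bases (6.96%) are overlapped on the opposite strand by the antisense gene Gm20531, whose reads cannot be told apart if counting ignored strand.

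Pirb, the paired immunoglobulin-like receptor B that binds MHC class I, was scarce. It had 2.945, 2.50 and 2.14 TPM in M0 and 0.997, 0.880 and 0.804 TPM in M2, which rest on 306 reads in all for M0 and 116 for M2. The groups did not overlap, and the log2 difference was -0.89 (SE 0.12, adjusted p = 4.26e-04 by limma). Pirb reached the filter through its M0 libraries alone, so it had to be lower in M2 to be tested in that way. The log2(TPM + 1) scale understates changes of genes this low. A pseudocount of 0.1 gave -1.40, limma-voom on recovered reads gave -1.46, and the values in the authors' deposited table gave -0.49, and Pirb passed in each. Of the 50-base stretches of its longest annotated transcript 37.3% occur in other genes, chiefly of the neighbouring Pira family, so its reads are uncertain. Pirb (NM_001357394) is on chromosome 7, 3712507 to 3720382, minus strand.

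Sirpa encodes the receptor of CD47, through which macrophages are held back from engulfing healthy cells. It was the third most abundant of the 10 in M0, at 385, 399 and 393 TPM, and had 366, 377 and 336 TPM in M2. Although the groups did not overlap, the mean of 392 ± 7.24 TPM in M0 and of 359.8 ± 21.0 TPM in M2 gave a log2 difference of -0.13 (95% interval -0.26 to 0.01) that did not pass (adjusted p = 0.118 by limma). It passed in 1 of 16 alternatives, with the trend on transcript length removed (adjusted p = 0.0455). Sirpa over Ptpn6 was 1.54, 1.46 and 1.49 in M0 and 2.44, 2.54 and 2.24 in M2, without overlap. This ratio was not tested, and of its parts Ptpn6 fell by the test while Sirpa did not pass. Sirpa (NM_001355160) lies on chromosome 2, 129595462 to 129632228, plus strand. The ligand gene Cd47 averaged 74.3 ± 4.38 TPM without IL-4 and 77.4 ± 7.90 TPM with it (adjusted p = 0.605 by limma).

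By level, the order in M0 was Fcer1g, Tyrobp, Sirpa, Trem2, Ptpn6, Fcgr3, Fcgr2b, Fcgr4, Fcgr1 and Pirb. In M2 Trem2 stood above Sirpa, and Ptpn6 below Fcgr3 and Fcgr2b. Of neighbours in these orders, Fcgr3 and Fcgr2b in M0 were the pair whose library values overlapped; the other neighbours did not overlap in either group. Levels here are in TPM, per transcript length. The authors' deposited table, in which several of these genes have other transcript models, gives the same directions for all 10. At its adjusted p under 0.05 it has 4 members higher in M2 (13.6% of its 19143 genes with a fold change) and 2 lower (12.7%). Its log2 fold changes were -0.77 for Ptpn6, -1.47 for Pirb, 0.33 for Fcgr3 and 0.23 for Fcgr2b, and its adjusted p for Fcgr4, Tyrobp and Fcer1g was 0.0795, 0.0729 and 0.0652.

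**Figure D4:**
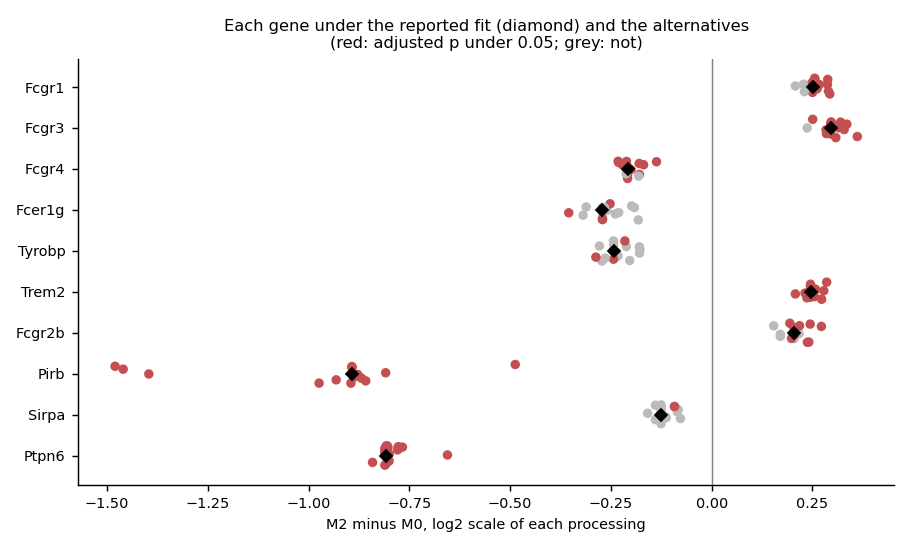
Difference between M2 and M0 (horizontal axis, on the log2 scale of each processing) for each of the 10 genes under the reported fit (diamonds) and up to 16 alternatives (points; red where the adjusted p was under 0.05). No point crosses 0, Ptpn6, Pirb and Trem2 are red throughout, and the other 7 genes mix red and grey.

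Downstream of the ITAM, most kinase and adaptor transcripts were lower in M2. Of 37 listed genes 36 were tested, and 24 fell, 2 rose and 10 did not pass. By the same rule 23.7% of all tested genes fell and 20.1% rose. The median log2 difference was -0.44 against -0.03 over all tested genes. Fgr, counted among the 24, reached the filter through M0 alone, with means of 2.29 TPM in M0 and 0.608 TPM in M2. Syk, the kinase that binds phosphorylated ITAMs, fell from 15.0, 17.9 and 16.8 TPM in M0 to 12.0, 11.9 and 9.25 TPM in M2 (log2 difference -0.55, SE 0.11, adjusted p = 0.00390 by limma). The Src family kinase gene Lyn fell from 48.1 ± 0.75 to 27.4 ± 1.32 TPM (log2 difference -0.79, adjusted p = 2.20e-05 by limma), without overlap. Fyn, of the same family, doubled from 27.8 ± 0.673 to 56.2 ± 3.42 TPM, and the other rise was that of Hcst, the adaptor DAP10, from 5.24 to 7.30 TPM. Pik3cb, a catalytic subunit of PI3-kinase, went from 44.7 to 17.5 TPM, the adaptor Fyb from 54.7 to 30.2 TPM and Grb2 from 96.6 to 65.5 TPM.

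Further genes of that list were chosen by role after their values were seen. Lcp2, the adaptor SLP-76, fell from 38.5 to 27.1 TPM, Plcg2, the phospholipase that raises calcium, from 45.8 to 34.5 TPM, and Vav1, an activator of RAC proteins, from 69.2 to 58.1 TPM. Card9, Bcl10 and Malt1, which link ITAM receptors to NF-kappaB, all fell, Bcl10 from 62.2 to 42.2 TPM. Btk did not pass, with means of 41.3 and 46.4 TPM (adjusted p = 0.0596 by limma), nor did the adaptors Lat2 and Blnk. The Syk transcript has 5083 bases, and tested genes of 5000 bases or more had a median log2 difference of -0.12. With the trend on length removed 24 genes of the list fell, and without M2 replicate 3, 25 did, while the number that rose became 6 and 5.

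Ptpn6 was also set against Syk, the activating kinase. The log2 ratio of Ptpn6 to Syk was 4.06, 3.93 and 3.98 in M0 and 3.65, 3.64 and 4.02 in M2, where M2 replicate 3 stood inside the M0 range. The difference was -0.22 (p = 0.30 by the exact two-sided permutation test), and -0.35 without M2 replicate 3.

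Genes listed as activating receptors that use ITAM adaptors, or as relatives of these, went both ways. Whether each of them uses such an adaptor was not checked. Of 44 listed 40 were in the table and 17 were tested, of which 4 rose and 8 fell. Over all tested genes the shares were 20.1% upward and 23.7% downward. The median log2 difference was -0.27 against -0.03 over all tested genes. Clec7a, dectin-1, which recognises fungal beta-glucan through an ITAM-like motif of its own, rose from 11.0 ± 0.744 to 45.6 ± 3.70 TPM. Trem1, which amplifies inflammation through DAP12, rose from 3.74 to 6.93 TPM, Cd300lb from 54.5 to 71.1 TPM and Fcrls from 0.405 to 1.5 TPM, though Fcrls reached the filter through its M2 libraries alone. Clec4e, the receptor Mincle, which pairs with the common gamma chain, fell from 160.3 ± 10.1 to 82.0 ± 3.94 TPM. Clec4d fell from 219 to 163 TPM, Clec5a, which pairs with DAP12, from 30.6 to 17.1 TPM, and Lilra5 from 9.80 to 5.92 TPM. Pira6 and Pilrb2, counted among the 8 falls, reached the filter through their M0 libraries alone. Their M2 means were 0.591 and 0.681 TPM, so they had to be lower in M2 to be tested in that way. When a TPM of at least 1 was required in all 6 libraries, 3 rose and 5 fell.

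Genes listed as inhibitory receptors, or as relatives of these, also went both ways. Whether each of them carries an ITIM was not checked. Of 35 listed 32 were in the table and 19 were tested. In all 5 rose and 10 fell, where 20.1% of all tested genes rose and 23.7% fell. The median log2 difference was -0.30 against -0.03 over all tested genes. Clec4a3 rose from 19.2 to 47.2 TPM and Lair1, the collagen receptor, from 19.3 ± 0.305 to 41.4 ± 3.11 TPM. Cd84, Clec4a1 and Milr1 also rose, Milr1 from 99.9 to 126 TPM. Cd5 fell from 38.7 to 20.8 TPM, Pilra from 34.6 to 21.8 TPM, Lilr4b from 131 to 91.1 TPM and Cd300a from 32.4 to 25.8 TPM.

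Among the other phosphatases and brakes 23 of 27 were tested, and 3 rose, 7 fell and 13 did not pass. Beside them, 20.1% of all tested genes rose and 23.7% fell. The median log2 difference was -0.07 in the list and -0.03 over all tested genes. Ptpn11, the close relative SHP-2, averaged 26.7 ± 2.05 TPM without IL-4 and 24.6 ± 4.16 TPM with it (adjusted p = 0.433 by limma), and Inpp5d, the lipid phosphatase SHIP1 that serves Fcgr2b, at 51.6 ± 2.67 and 51.5 ± 7.80 TPM (adjusted p = 0.927 by limma); both were singled out for their role. Ptpn6 over Ptpn11 was 10.3, 9.65 and 9.69 in M0 and 5.62, 5.43 and 7.59 in M2. This ratio was not tested. The Ptpn11 transcript is long, with 5593 bases, and had 26.8, 27.3 and 19.8 TPM in M2 replicates 1, 2 and 3. Long transcripts were generally lower in M2 replicate 3, as described above. Ptpn22, a phosphatase of Src and SYK family kinases, fell from 8.40 to 2.30 TPM (log2 difference -1.51, SE 0.098, adjusted p = 1.12e-05 by limma), and Ptpn12, Ubash3b and Inppl1 fell to between 0.68 and 0.74 of their M0 means. Csk, the kinase that holds Src family kinases inactive, rose from 90.9 ± 4.01 to 120.04 ± 3.40 TPM, the adaptor Sla from 4.33 to 7.34 TPM and Ptpn2 from 23.1 to 28.3 TPM. The number of rises was 8 without M2 replicate 3 and 8 with the trend on length removed.

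Of 24 ligands and sheddases of the 10 proteins 14 were tested, and 5 rose and 4 fell. For comparison, 20.1% of all tested genes rose and 23.7% fell. The median log2 difference was 0.07 in this list and -0.03 over all tested genes. Apoe, a lipoprotein ligand of TREM2, rose from 2.51 ± 0.158 to 5.06 ± 0.994 TPM, and Clu, another such ligand, fell from 7.11 to 4.35 TPM. Lgals3 rose from 729 to 927 TPM, C1qa from 146 to 196 TPM and Angptl2, a ligand of PIR-B, from 3.52 to 7.76 TPM. C1qb and C1qc, singled out for their role, did not pass. C1qb had means of 268 TPM in M0 and 289 TPM in M2 (adjusted p = 0.228 by limma). Those of C1qc were 295 and 313 TPM (adjusted p = 0.391 by limma). The proteases that shed TREM2 moved apart, Adam10 from 51.2 to 78.9 TPM and Adam17 from 124 to 87.9 TPM. The MHC class I genes H2-D1 and H2-K1, whose products bind PIR-B and whose reads can be shared with near-identical copies, fell, H2-D1 from 539.7 to 445 TPM and H2-K1 from 411 to 361 TPM. B2m, likewise singled out for its role, did not pass, with means of 1349 TPM in M0 and 1310 TPM in M2 (adjusted p = 0.646 by limma). Of 9 other immunoglobulin-binding proteins 2 were tested: Fcgrt, the neonatal Fc receptor that recycles IgG, rose from 32.9 ± 1.42 to 41.0 ± 1.45 TPM, and Trim21, the cytosolic antibody receptor, had 7.67 TPM in M0 and 7.63 TPM in M2.

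**Figure D5:**
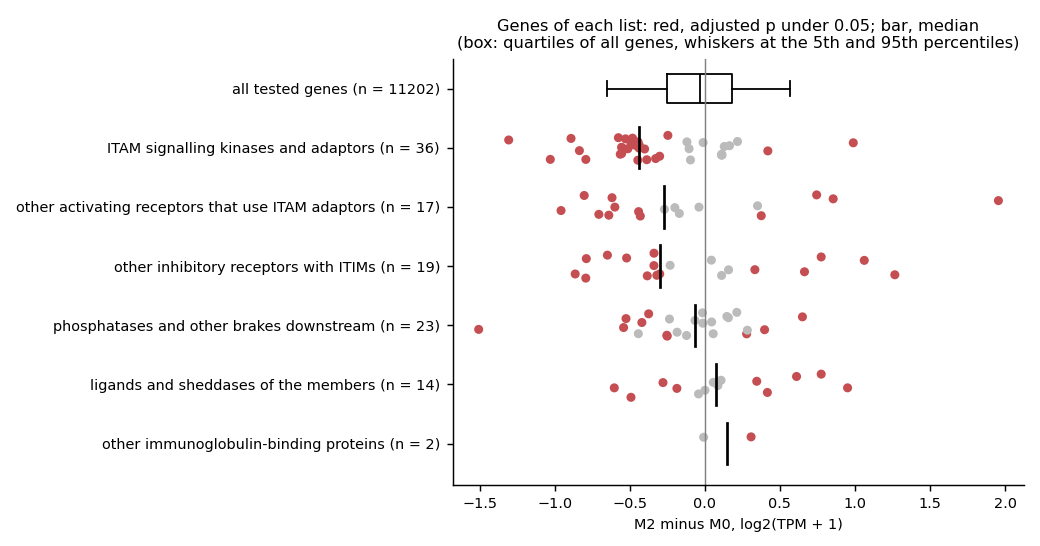
Difference between M2 and M0 on log2(TPM + 1) (horizontal axis) for every tested gene of the 6 lists, in red where the adjusted p was under 0.05, with a bar at each median; the box shows the quartiles of all 11202 tested genes and its whiskers the 5th and 95th percentiles. The ITAM kinases and adaptors centre on -0.44, the receptor lists spread to both sides, and the ligands centre on 0.07.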

How the data were processed

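Poly(A) RNA was sequenced (input 200 ng total RNA, per the labels' protocols) in 3 M0 and 3 M2 libraries, grouped by sample title. The submitters' processing notes name STAR 2.7.5a, HOMER 4.11.1, DESeq2 and mm10; the sources used here do not give annotation, strand or multi-mapping rules. The authors deposited TPM for 25124 genes with 1 transcript model each. Their comparison table holds deposited values for 24421 genes, read here as log2 scale from their range, beside the authors' p-value, adjusted p-value and log2 fold change; its sign is M2 over M0, as checked on the columns.

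Genes reaching 1 TPM in 3 or more libraries were fitted with limma 3.58.1 (R 4.3.3) on log2(TPM + 1) by group, with a variance trend and Benjamini-Hochberg adjustment over 11202 genes, and called under 0.05. Tables and plots used Python 3.11.15, pandas 2.3.3, scipy 1.17.1 and matplotlib 3.10.9. Means ± SD are over the 3 TPM values of a group, whose ratio is the fold. TPM times length came in whole multiples of 1 read (100% within 0.1), which gave the reads for limma-voom. Same-group library pairs had a chi-square per degree of freedom of 2.18 to 19.6, so none was a duplicate. The labels do not say that replicates came from separate cultures. The p-values thus reflect only how far these samples spread, which may be technical. Shared stretches were counted on GENCODE M21 transcripts.

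The members, the 6 pathway lists and the 7 marker lists were chosen with earlier results of these data known. Named genes were all members, Syk and Cd47, and per list up to 4 called genes in each direction with the lowest adjusted p and a mean TPM of at least 5, with every gene of a count of 5 or fewer. Marker genes given with levels, genes named for how they reached the filter, and genes said to be chosen for their role fall outside this rule. They were chosen after their values were seen. The code was tested on simulated data. As alternatives, the pseudocount was set to 0.1, the filter was dropped or required in all 6 libraries, and the fit was repeated with median-ratio scaling, limma-voom with TMM or upper-quartile factors, the authors' values, no variance trend, a replicate block, each library left out, and, chosen after seeing the data, removal of each library's trend on transcript length.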

Additional observations from a re-analysis of the deposited data

How the results depend on the processing

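None of the 159 values that the alternatives gave for the 10 genes changed direction; 17 lost the call of the reported fit and 14 gained one. Over the libraries left out in turn, the number of members higher in M2 ranged from 1 to 4 and the number lower from 2 to 4. It was 1 higher and 2 lower without M0 replicate 3, and 4 higher and 2 lower without M0 replicate 1. Over the other alternatives 3 or 4 members were higher and 3 to 6 lower, the most with the trend on transcript length removed. Ptpn6 and Trem2 passed in all 16 alternatives. Pirb passed in all 15 that tested it, but it reached the filter of the reported fit through its M0 libraries alone. The calls of Fcgr1, Fcgr3 and Fcgr4 ended in 3, 1 and 2 alternatives, each with a library left out, and that of Tyrobp in 11. With the replicate number as a block, 4 members were higher and 5 lower, as Fcgr2b (adjusted p = 0.0144 by limma) and Fcer1g (adjusted p = 0.00736 by limma) passed too. Same-numbered libraries of the groups correlated in their deviations at -0.03, 0.21 and 0.03, and 3 of 6 libraries correlated best with their own number, so the numbers were not taken as pairs; with the block 2236 genes were higher and 2634 lower. Pirb, with 36 to 126 reads per library, is the 1 member whose size depth limits.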
